A study of Mus musculus with 12 samples.

Results

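Collagen transcripts were followed by RNA sequencing of the whole spinal cord in 12 libraries of polyA RNA, all from mice of 8 weeks. Members were all genes with a collagen chain symbol (Col, a type number, a, a chain number) and a mean of at least 10 estimated counts over the 12 libraries, which gave 42 of the 38924 genes in the tables. Of the 44 such symbols, Col17a1 and Col10a1 fell short, with means of 6.67 and 4.0 estimated counts. The members nearest the limit were Col6a5, Col4a4 and Col9a1, with means of 26.2, 29.9 and 38.4 estimated counts. All 42 members passed the filter on low counts used for testing. The label of this gene set, collagens of cord and meninges, could not be checked by source, because the cord was sequenced whole.

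By title, the groups were 6 libraries of mice heterozygous for the C201R change in Gars (genotype tag C201R+/-), numbered 1, 2, 3, 10, 11 and 12, and 6 wild-type (WT) libraries (tag C201R+/+, read with the titles as wild type), numbered 4 to 9. All were on the strain background given as B6J.Cg, and each titled genotype held 3 libraries titled female and 3 titled male. Gars encodes glycyl-tRNA synthetase, which charges tRNA with glycine. The library name in each sample's description gave another genotype than the title in 4 libraries. Of these, 11 and 12 carried C201R in the title and WT in the name, and 4 and 9 carried WT in the title and C201R in the name. Genotype was therefore compared in 3 ways, by title (6 C201R, 6 WT), by library name (6 C201R, numbers 1 to 4, 9 and 10, and 6 WT), and in the 8 libraries whose labels agreed (4 C201R, numbers 1, 2, 3 and 10, and 4 WT, numbers 5 to 8).

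Collagens are secreted proteins in which chains wind around each other in a triple helix, and the helix needs glycine at every turn of its repeating Gly-X-Y unit. Types differ in what they build. Fibrillar collagens form the cables of connective tissue, type IV forms the sheet of basement membranes, type VI forms beaded filaments around cells, and fibril-associated collagens coat the cables. In spinal cord, fibrillar collagen is known mainly from the meninges and the perivascular space, and type IV collagen from the basement membranes of vessels and of the cord's surface.

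Library totals lay between 27175421 estimated counts (library 8) and 38271405 (library 9). Xist, the RNA of the inactive X chromosome, was at 109 to 129 TPM in 6 libraries and at most 0.02 TPM in the others. It was high in 5 libraries titled C201R and 1 titled WT, and in 3 of each genotype by library name, and it went against the titled sex in 6 of 12 libraries. Most markers of tissue outside the cord varied widely, while 13 cartilage and bone markers summed to 33.5 to 50.4 TPM, a 1.5-fold range. The summed TPM of 9 skeletal muscle markers ranged from 28.3 to 3170, that of 8 fat markers from 2.38 to 662 (the top in library 3), that of 8 dorsal root ganglion neuron markers from 4.33 to 50.7, that of 6 Schwann cell markers from 58 to 184, and that of 13 blood and leukocyte markers from 1040 to 7170. Neuron, astrocyte and oligodendrocyte lineage markers, by contrast, differed by at most 1.22-fold between libraries. Of 15 meningeal fibroblast markers, 13 exceeded 1 TPM in some library.

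Col11a2, Col16a1 and Col1a2 had the highest mean TPM of the collagen mRNAs. Levels between genes were compared in TPM, which accounts for transcript length, so ranks depend on the length assigned to each gene. In estimated counts, without length, Col16a1 averaged 1800, below Col4a2 at 3110, Col1a2 at 3050 and Col11a2 at 2980. The 42 members summed to 418 ± 43.4 TPM (SD, n = 12), with the lowest sum, 343 TPM, in library 8 and the highest, 503 TPM, in library 11. The top 5 members held 41.7% of that sum. At the level of single members, 14 averaged 10 TPM or more, 21 averaged between 1 and 10 TPM, and 7 averaged under 1 TPM.

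Fibrillar chains made up 40.7% of the summed collagen TPM. Col11a2, a chain of type XI collagen that sits inside thin fibrils, had the highest mean of all members, 40.9 ± 6.26 TPM (SD, n = 12), and Col11a1 averaged 24.6 ± 1.95 TPM. Col1a2, one of the chains of type I collagen, the main collagen of dense connective tissue, averaged 37.6 ± 8.42 TPM. Its partner Col1a1 averaged 18.2 ± 5.66 TPM and Col3a1, the chain of type III collagen of pliable tissue and vessel walls, 15.1 ± 4.76 TPM. Col2a1, the chain of cartilage fibrils, was the lowest fibrillar member at 2.47 ± 0.43 TPM. Thus the type XI chains that accompany type II fibrils in cartilage were measured at several times the level of Col2a1 itself.

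Fibril-associated collagens followed with 23% of the sum, led by Col16a1 at 40.1 ± 2.44 TPM and Col9a3, a chain of type IX collagen, at 20.6 ± 2.06 TPM. Col16a1 and Col11a2 differed by less than their spread between libraries. Type IV collagen gave 15%, nearly all of it from Col4a2 (29.9 ± 3.16 TPM) and Col4a1 (26.0 ± 4.36 TPM), the pair of chains in almost every basement membrane. The other type IV chains were lower, with Col4a5 at 5.04 ± 0.479 TPM and Col4a6, Col4a3 and Col4a4 between 0.315 and 0.73 TPM.

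Transmembrane collagens contributed 6.82%. They were carried by Col23a1 (13.8 ± 1.72 TPM) and Col25a1 (13.5 ± 0.791 TPM), of which Col25a1 is known from neurons as the precursor of a protein found in amyloid plaques. Type VI gave 6.42%, with Col6a1 at 13.7 ± 2.36 TPM and Col6a2 at 8.31 ± 2.67 TPM, while Col6a4, Col6a5 and Col6a6 each averaged under 1 TPM. The multiplexins Col15a1 and Col18a1, whose products sit in vessel basement membranes and whose cleaved ends include endostatin, averaged 11.3 ± 3.39 and 5.97 ± 0.622 TPM. Col26a1 and Col7a1, the leading chains outside the named classes, averaged 9.76 ± 0.891 and 2.01 ± 0.457 TPM. Type VIII collagen of the endothelial and Descemet membrane kind was scarce, with Col8a2 at 1.9 ± 0.525 TPM and Col8a1 at 1.6 ± 0.536 TPM.

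**Figure D1:**
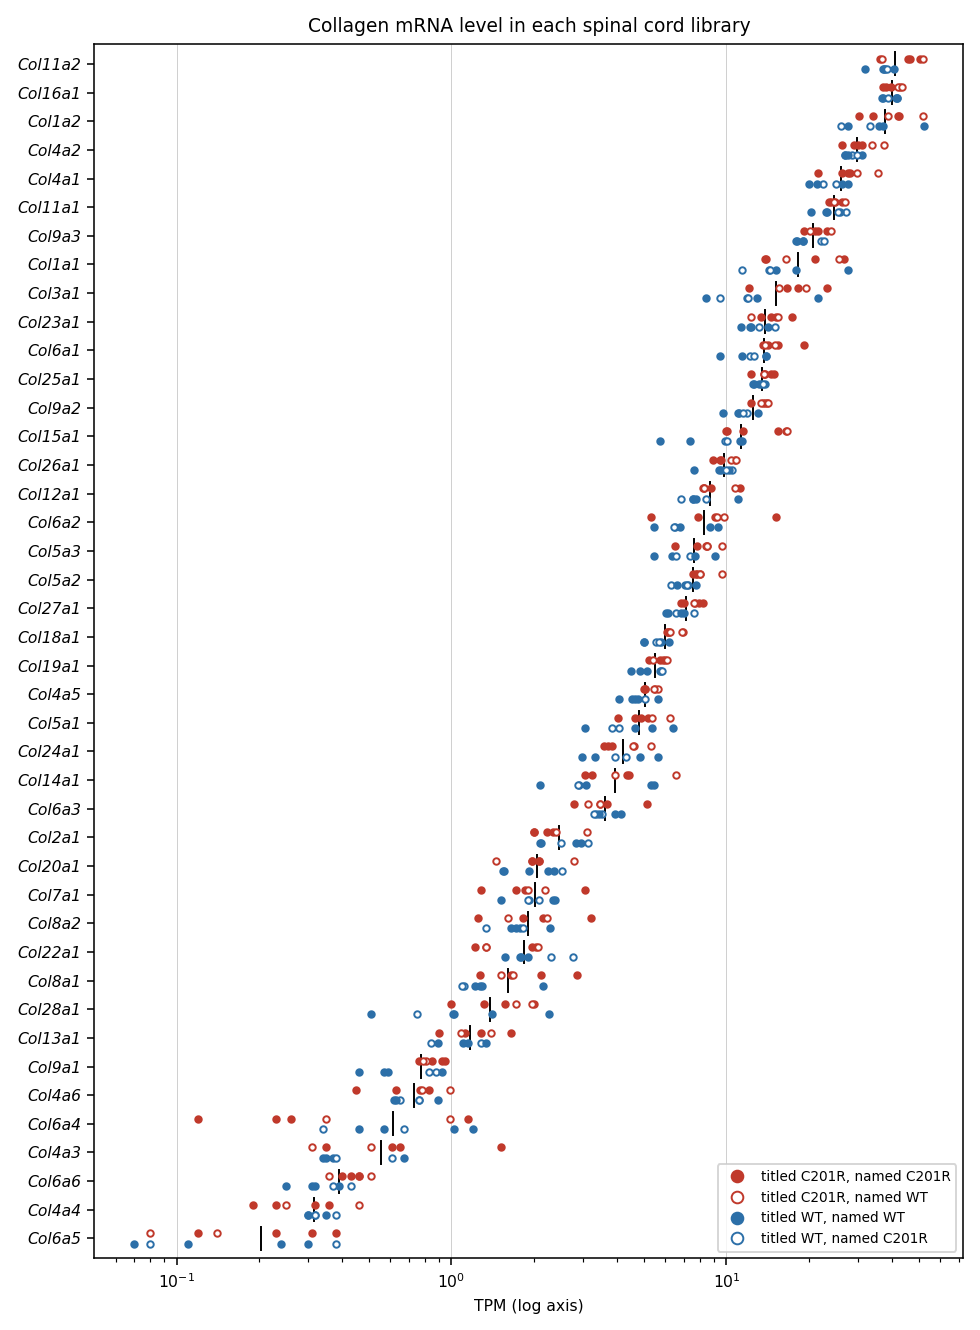
TPM (log axis) of each of the 42 collagen mRNAs in each of 12 libraries, ordered by mean (black tick), with libraries titled C201R drawn above those titled WT and open points where the library name gives the other genotype. Means run from 40.9 TPM for Col11a2 to 0.203 TPM for Col6a5, and the points of the titled genotypes overlap in every member.

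The gene length in the tables, which RSEM sets from the mix of transcripts it assigns in each library, differed between libraries by over 1.2-fold for 16 of the 42 members. For Col4a3 it was 2769 bases in library 1 and 8554 bases in library 5, a 3.09-fold range. Its TPM of 1.51 in library 1 was the highest of the 12, against 0.67 or less in the other libraries. In CPM (counts after scaling for library size, without length), Col4a3 was 2.06 in library 1 and highest in library 2 at 2.67, so the level of library 1 stood apart only in TPM. Col11a2 ranged from 3563 bases in library 2 to 5051 bases in library 8, and its highest over lowest value was 1.63-fold in TPM and 1.26-fold in CPM. The library with the highest value was the same in TPM and CPM for 28 of the 42 members. Levels of one member in single libraries and in genotype groups are therefore given in CPM. Correlations and the library medians of the whole set are in TPM, which keeps these length differences, unless CPM is named.

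Members differed in how much they varied over the 12 libraries. In TPM, 20 members varied by over 2-fold from the lowest to the highest library and 11 by less than 1.5-fold, and in CPM 15 varied by over 2-fold. Among features with a mean of at least 500 estimated counts, the median SD of log2(CPM + 0.1) was 0.18 for the 19 collagen members and 0.07 for all 8955 genes. Of these 19 members, 17 were above the median of all genes. The most even member in TPM was Col25a1, with a log2 SD of 0.08. The largest log2 SDs in TPM belonged to Col6a4 (0.84), Col28a1 (0.58) and Col6a5 (0.57), all with means under 100 counts.

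Col6a4, a further type VI chain that is intact in mouse, spanned 0.344 CPM in library 1 to 3.23 CPM in library 2. It was above 2 CPM in libraries 2, 7, 8 and 12 and under 1 CPM in libraries 1, 3, 4, 10 and 11, so its high and low libraries crossed both genotype labels. Col28a1, a chain of type XXVIII collagen known from peripheral nerve, ran from 1.13 CPM in library 8 to 4.93 CPM in library 6. Col6a5 lay between 0.301 CPM in library 7 and 1.57 CPM in library 4. Reads of the near relatives Col6a4, Col6a5 and Col6a6 can be divided among them by RSEM, which makes these low values uncertain.

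Libraries also differed across the whole set. The median member lay 0.21 above its own mean on the log2(TPM + 0.1) scale in library 11, and 0.11 above in library 2. In library 8 it was at -0.21 and in library 5 at -0.12. By title, the C201R libraries had medians between -0.02 and 0.21, and the WT libraries between -0.21 and 0.07, with overlap.

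**Figure D2:**
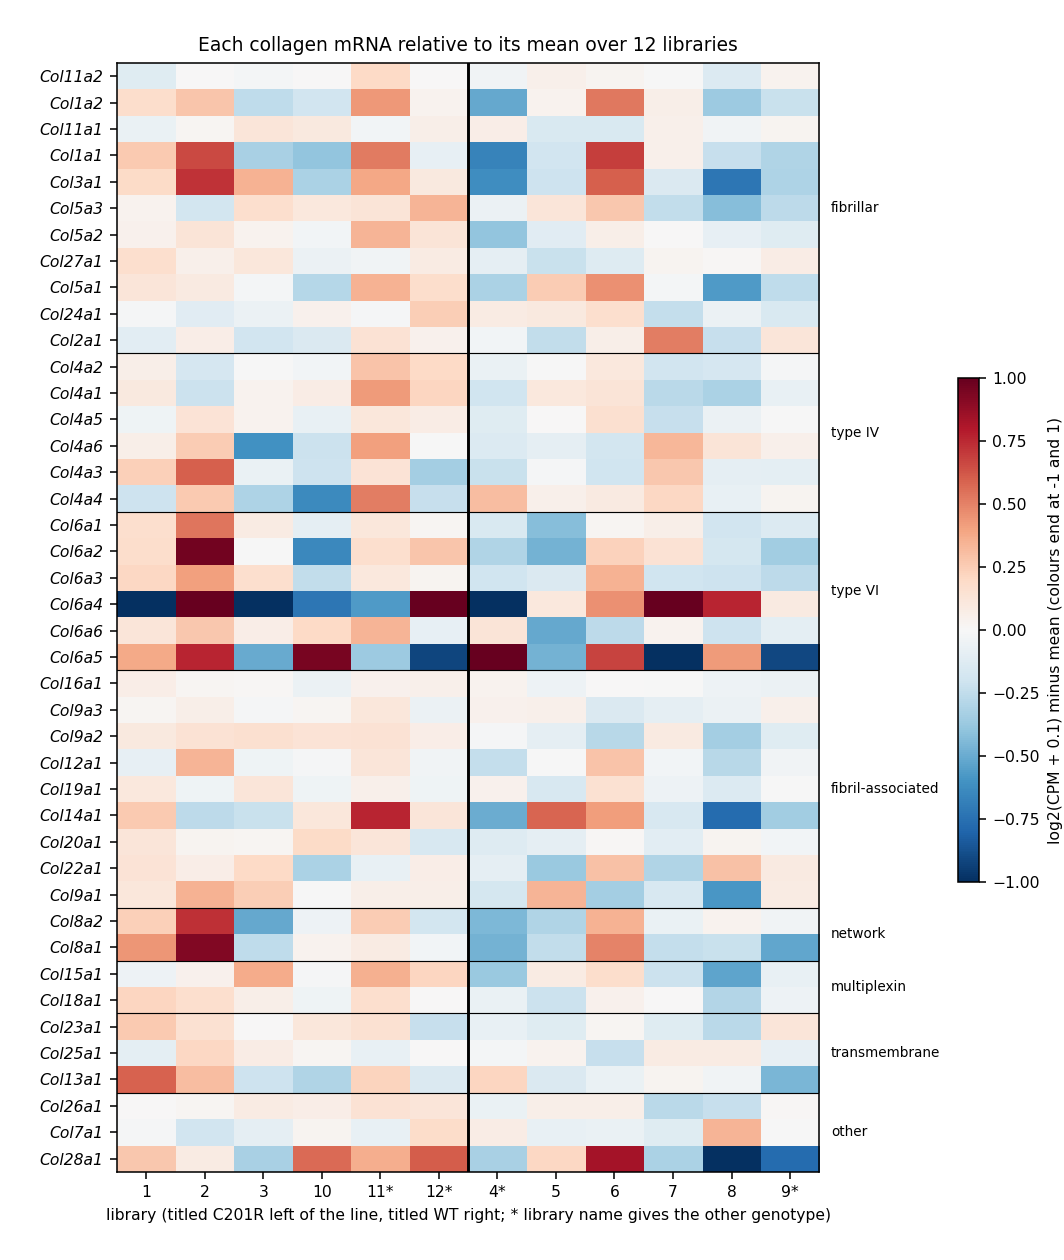
Log2(CPM + 0.1) of each collagen mRNA minus its mean over 12 libraries (colour, ends at -1 and 1), by structural class down the page and by library across, titled C201R on the left and titled WT on the right. Libraries 2 and 6 are high for Col1a1, Col3a1, Col8a1 and Col8a2 although their genotype labels differ, and library 8 is low for most members.

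In TPM, levels correlated over the libraries for some pairs of chains that assemble into one protein, and other pairs did not pass. Pearson correlations of log2(TPM + 0.1) over the 12 libraries were computed for 12 pairs, with two-sided permutation tests and adjustment over the 12. Col1a1 and Col1a2 had r = 0.93 and Spearman's rho = 0.94 (permutation p = 1e-05 and 4e-05, adjusted p = 0.00012 and 0.00048, with 1e-05 the smallest p that the 100000 permutations can give). Without libraries 2 and 6, the farthest from the median, r was 0.94. Col1a2 was higher than Col1a1 in all 12 libraries, with a TPM ratio of Col1a1 to Col1a2 between 0.406 and 0.627.

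Col4a1 and Col4a2 gave r = 0.92 and rho = 0.91 (permutation p = 5e-05 and 0.00014, adjusted p = 0.0003 and 0.00084), and r = 0.85 without libraries 8 and 11. Their TPM ratio stayed between 0.74 and 0.954. The 2 genes lie head to head on chromosome 8 of the mouse. The windows around their annotated start sites are shown because they overlap and are read in opposite directions. The windows are from RefSeq (GRCm38.p6), 250 bases before to 50 bases after each start, 5′ to 3′ on the gene's own strand. Capitals mark the motif CCAAT on either strand (read as ATTGG on the other), a box bound by the factor NF-Y.

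Col4a1, chr8:11312777-11313076, minus strand: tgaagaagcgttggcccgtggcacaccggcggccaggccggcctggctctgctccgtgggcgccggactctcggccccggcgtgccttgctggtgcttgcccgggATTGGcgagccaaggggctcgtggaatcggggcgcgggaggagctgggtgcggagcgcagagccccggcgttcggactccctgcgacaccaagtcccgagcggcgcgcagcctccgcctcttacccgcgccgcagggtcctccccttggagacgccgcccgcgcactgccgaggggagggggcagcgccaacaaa

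Col4a2, chr8:11312555-11312854, plus strand: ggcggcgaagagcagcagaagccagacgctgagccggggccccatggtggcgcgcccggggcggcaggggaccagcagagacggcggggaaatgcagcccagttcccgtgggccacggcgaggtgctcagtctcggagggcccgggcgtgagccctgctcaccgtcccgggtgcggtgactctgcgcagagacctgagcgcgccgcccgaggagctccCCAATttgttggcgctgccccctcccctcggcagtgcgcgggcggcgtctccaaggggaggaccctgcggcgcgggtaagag

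The windows share 78 bases, and the annotated start sites are 21 bases apart. Each window holds a box of its own. The Col4a1 box lies outside the shared bases, and the Col4a2 box lies at their edge, with only its last base among them. Counted from each gene's start site, the box begins at -145 in Col4a1 and at -32 in Col4a2. Of all 32851 windows in the table, 37.4% hold CCAAT on either strand, and 11 of the 33 collagen members with a window do. GGGCGG on either strand, the core of an SP1 site, was in 35.7% of all windows and in 22 of those 33. Both motifs are matches of letters only. Exons of Col4a1 and Col4a2 overlap in the GENCODE M21 annotation, as do exons of 7 other members with those of another gene in the tables, so reads at these ends could be assigned to either gene.

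Col8a1 and Col8a2 had r = 0.85 and rho = 0.73 (permutation p = 0.00046 and 0.00925, adjusted p = 0.00184 and 0.0222), and Col6a1 and Col6a2 had r = 0.84 and rho = 0.73 (p = 0.00134 and 0.00884, adjusted p = 0.00322 and 0.0222). Without the 2 farthest libraries r was 0.65 and 0.62. Col1a1 and Col3a1, separate collagens that share fibrils, had r = 0.82 and rho = 0.75 (permutation p = 0.00122 and 0.00698, adjusted p = 0.00322 and 0.0222), and r = 0.69 without libraries 2 and 6. The type XI chains had r = 0.11 and rho = 0.1 (permutation p = 0.743 and 0.753, adjusted p = 0.81 and 0.821), and Col4a5 with Col4a6 had r = 0.01 and rho = 0.03 (p = 0.985 and 0.918, adjusted p = 0.985 and 0.918). Both type XI chains varied little in CPM, 1.21-fold for Col11a1 and 1.26-fold for Col11a2, and Col4a6 averaged only 78.7 estimated counts. A low r in these pairs therefore cannot show whether the chains vary together. For Col6a1 with Col6a3 the scale mattered, since r was 0.11 in TPM and 0.76 in CPM, and the length of Col6a3 differed by 1.66-fold between libraries. The other 4 pairs had r between 0.3 and 0.57 in TPM and did not pass (adjusted permutation p between 0.107 and 0.437). In CPM their r was higher, between 0.42 and 0.68, and was not tested.

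**Figure D3:**
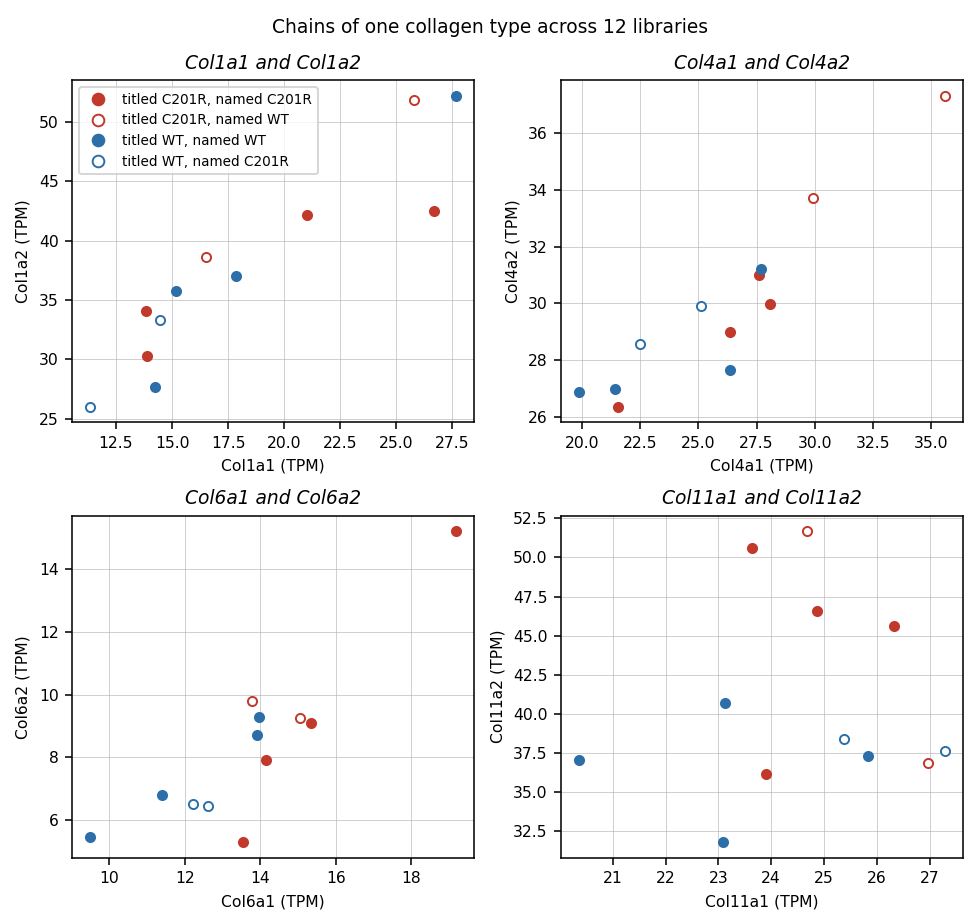
TPM of one chain against TPM of its partner in each of 12 libraries, for 4 pairs, with filled and open points as in the legend. Col1a1 with Col1a2 and Col4a1 with Col4a2 lie along a line (r = 0.93 and 0.92), while Col11a1 and Col11a2 do not (r = 0.11).

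The first genotype question was whether collagen transcripts differ in the titled C201R libraries. No member passed. With edgeR's quasi-likelihood test adjusted over 17765 genes, 0 of all genes were called (0%), and the lowest adjusted p of a member was 0.579. DESeq2 called 18 genes and no member. Before adjustment, 10 of the 42 members had p under 0.05, all higher in C201R, where 3.48% of all genes were higher at that level and 3.28% lower (6.77% in either direction). In fitted direction 37 of 42 members were higher in C201R, against 50.7% of all genes, and the median log2 difference was 0.14 for members and 0 for all genes. Without library 2 the median difference was 0.09. The SD of the library medians within genotypes was 0.09 on the log2(TPM + 0.1) scale. That SD describes single libraries in TPM, not a difference between group means fitted on counts, so it gives no test of the shift.

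Of these, Col9a2, a type IX chain, had the lowest p. It spanned 11.7 to 12.5 CPM with a median of 12.3 in C201R, against 8.83 to 11.9 CPM with a median of 10.4 in WT. All C201R libraries were close together and the groups overlapped at library 7 alone, which was titled WT. The log2 difference was 0.25 ± 0.07 (SE; edgeR adjusted p = 0.579). Col18a1 was 14.4 to 17.2 CPM (median 16.1) in C201R and 12.1 to 15.3 CPM (median 14.3) in WT, a difference of 0.19 ± 0.07 on the log2 scale (edgeR adjusted p = 0.668).

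Col6a1 reached 40.6 CPM in library 2 and otherwise lay between 26.3 and 31.5 CPM in C201R, against 20.8 to 29.1 CPM in WT. Its log2 difference was 0.28 ± 0.10 (edgeR adjusted p = 0.671). Col4a1 ran from 75 to 117 CPM (median 92.2) in C201R, against 69.8 to 95.1 CPM (median 79.1) in WT, with a log2 difference of 0.21 ± 0.08 (edgeR adjusted p = 0.671). Col5a2, a chain of the type V collagen that sets fibril width, was 23.7 to 30.5 CPM (median 25.5) in C201R and 18.3 to 25.1 CPM (median 22.6) in WT, with a log2 difference of 0.21 ± 0.08 (edgeR adjusted p = 0.671). All of these groups overlapped, as did those of every member by title and by library name, while the CPM of the groups did not overlap for 0.349% of all genes by title and 1.64% by library name. The other members with p under 0.05 before adjustment were Col15a1, Col5a3, Col6a6, Col4a2 and Col26a1, with log2 differences of 0.30, 0.20, 0.32, 0.11 and 0.14.

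The abundant interstitial chains were not resolved in either direction. Col1a1 was 39.9 to 83.1 CPM (median 56.5) in C201R and 33 to 84.9 CPM (median 45.5) in WT, and the 95% interval of its log2 difference of 0.21 was -0.31 to 0.73. For Col1a2, 78.7 to 127 CPM in C201R stood against 65.9 to 135 CPM in WT, with an interval of -0.21 to 0.49. Col16a1 was far tighter, 54.1 to 59 CPM in C201R and 54.1 to 57.9 CPM in WT, with an interval of -0.01 to 0.1.

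By title, markers of vessels, coverings, blood and tissue outside the cord were also mostly higher in C201R, and none of their genes was called. Fitted values were higher in C201R for 12 of 14 tested meningeal fibroblast markers (median 0.39 on the log2 scale), 11 of 11 pericyte and smooth muscle markers (0.13), 9 of 10 endothelial markers (0.09) and 5 of 6 Schwann cell markers (0.18). The same held for 13 of 13 blood and leukocyte markers (0.26), 8 of 8 dorsal root ganglion neuron markers (0.70) and 5 of 5 tested fat markers (1.95). Skeletal muscle markers were higher in 3 of 9 (-0.09), and cartilage and bone markers in 5 of 12 tested (-0.03). The summed meningeal markers were 100 to 278 TPM in C201R (median 147) and 100 to 184 TPM in WT (median 136), and the summed Schwann cell markers 78 to 178 TPM in C201R (median 137) and 58 to 184 TPM in WT (median 105). The summed blood and leukocyte markers were 1040 to 7170 TPM in C201R (median 2280) and 1130 to 3400 TPM in WT (median 2970). The part of these cells in the collagen values was not tested. In whole tissue, fewer cells of a type and less RNA per cell cannot be told apart. High Xist also divided unevenly by title, in 5 of 6 C201R and 1 of 6 WT libraries, and its part in the title differences was not tested.

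Grouped by library name, the collagens showed no common direction. Fitted values were higher in C201R for 25 of 42 members, against 50.9% of all genes, with a median log2 difference of 0.02, and the SD of the library medians within genotypes was 0.12. No member was called, while 127 of 17765 genes were (0.715%, with 0.169% higher), and DESeq2 called 318 genes and no member. Before adjustment, 2 members had p under 0.05, 1 in each direction, where 12.8% of all genes did (5.98% higher and 6.81% lower). Fibrillar members were higher in 4 of 11 by library name and in 10 of 11 by title. Type IV members were higher in 1 of 6 by library name and in 4 of 6 by title.

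Col23a1, a transmembrane collagen, had the lowest p by library name. It was 36.8 to 46.5 CPM (median 42) in C201R and 32.2 to 43.2 CPM (median 35.6) in WT. The groups overlapped, with library 11, named WT, as high as library 2, named C201R. The log2 difference was 0.22 ± 0.08 (SE; edgeR adjusted p = 0.265). Col6a4 had the next lowest p and was 0.344 to 3.23 CPM (median 0.64) in C201R, against 0.81 to 2.94 CPM (median 1.96) in WT. Its difference of -1.28 ± 0.49 on the log2 scale did not pass (edgeR adjusted p = 0.295), and library 2, named C201R, held the highest value of all.

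Col6a5 was 0.338 to 1.57 CPM (median 1.14) in C201R and 0.301 to 1.22 CPM (median 0.516) in WT, with a log2 difference of 0.74 ± 0.45 (edgeR adjusted p = 0.545). Differences for Col9a3 and Col11a1 were small, 0.07 ± 0.05 and 0.06 ± 0.04 (edgeR adjusted p = 0.569 and 0.595). Schwann cell markers turned with the label, since 1 of 6 was higher in C201R by library name (median -0.10). Their summed level was then 78 to 141 TPM (median 104) in C201R and 58 to 184 TPM (median 162) in WT. The other lists mostly did not turn, although the collagens had no common direction here. By library name, fitted values were higher in C201R for 11 of 11 pericyte and smooth muscle markers (median 0.22), 8 of 10 endothelial (0.09), 11 of 14 meningeal fibroblast (0.13), 13 of 13 blood and leukocyte (0.65), 7 of 8 dorsal root ganglion neuron (0.45), 5 of 5 fat (3.07) and 9 of 9 skeletal muscle markers (0.17). Cartilage and bone markers went the other way, higher in 2 of 12 tested (median -0.26). Before adjustment 5 of them had p under 0.05 in edgeR, all lower, where 6.81% of all genes were lower.

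In the 8 libraries with undisputed labels, which are part of both other groupings, the direction of the collagen set was closer to the title comparison. Over all genes they were closer to the library-name comparison. There, 13% of genes had p under 0.05 in edgeR before adjustment, against 12.8% by library name and 6.77% by title. As by title, high Xist was more frequent in C201R than in WT among the 8 libraries. A check list of 5 sex-linked genes had log2 differences from -2.17 to 2.98 here, -3.33 to 4.44 by title and -0.34 to 0.25 by library name. The part of this imbalance in the collagen differences was not tested. Of the 42 members, 36 were higher in C201R, where 52.1% of all genes were, and the median log2 difference was 0.13. No member was called by edgeR, against 29 of all genes (0.163%, with 0.0338% higher), and 4 members had p under 0.05 before adjustment, all higher, where 6.01% of all genes were higher and 6.96% lower. Col23a1 was 46.5, 43.2, 38.9 and 41.9 CPM in C201R libraries 1, 2, 3 and 10, against 35.6, 39.4, 35.6 and 32.2 CPM in WT libraries 5, 6, 7 and 8. Library 3 fell just under library 6, and the other C201R libraries lay above every WT library. The log2 difference was 0.30 ± 0.06 with a 95% interval of 0.15 to 0.44 (edgeR adjusted p = 0.0907). DESeq2 called it, with the same difference and an adjusted p of 0.00361, among 245 genes it called in all. Marker lists were higher in C201R in 11 of 11 pericyte and smooth muscle (median 0.25), 10 of 10 endothelial (0.13), 12 of 14 meningeal fibroblast (0.40), 13 of 13 blood and leukocyte (0.68), 7 of 8 dorsal root ganglion neuron (1.13), 5 of 5 fat (3.04), 9 of 9 skeletal muscle (0.11) and 4 of 6 Schwann cell markers (0.13). Cartilage and bone markers were higher in 2 of 12 tested (-0.17), and 3 were lower at p under 0.05 in edgeR before adjustment, where 6.96% of all genes were. The part of all these lists in the collagen values was not tested.

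Col9a2 had 12.0, 12.4, 12.5 and 12.3 CPM in C201R libraries 1, 2, 3 and 10, against 10.5, 9.23, 11.9 and 8.83 CPM in WT libraries 5 to 8. These groups did not overlap, nor did those of Col6a6, which had 1.53, 1.71, 1.47 and 1.62 CPM in C201R, against 0.954, 1.15, 1.44 and 1.2 CPM in WT. Groups of 8.53% of all genes did not overlap in this comparison, and those of 2 of the 42 members did not. The log2 differences were 0.27 ± 0.10 for Col9a2, 0.23 ± 0.09 for Col18a1, 0.37 ± 0.16 for Col6a6 and 0.08 ± 0.03 for Col11a1 (edgeR adjusted p = 0.29, 0.33, 0.38 and 0.393). For Col6a4 the difference was -1.15 ± 0.60 (edgeR adjusted p = 0.461). It was called lower in C201R only without library 2, with a log2 difference of -2.09 (edgeR adjusted p = 0.0357), where 19 of 17765 genes were called. Library 2 is a C201R library and held the highest Col6a4 value of all, 3.23 CPM, so leaving it out removed the value that went against the difference. Col6a4 averaged only 48.7 estimated counts.

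**Figure D4:**
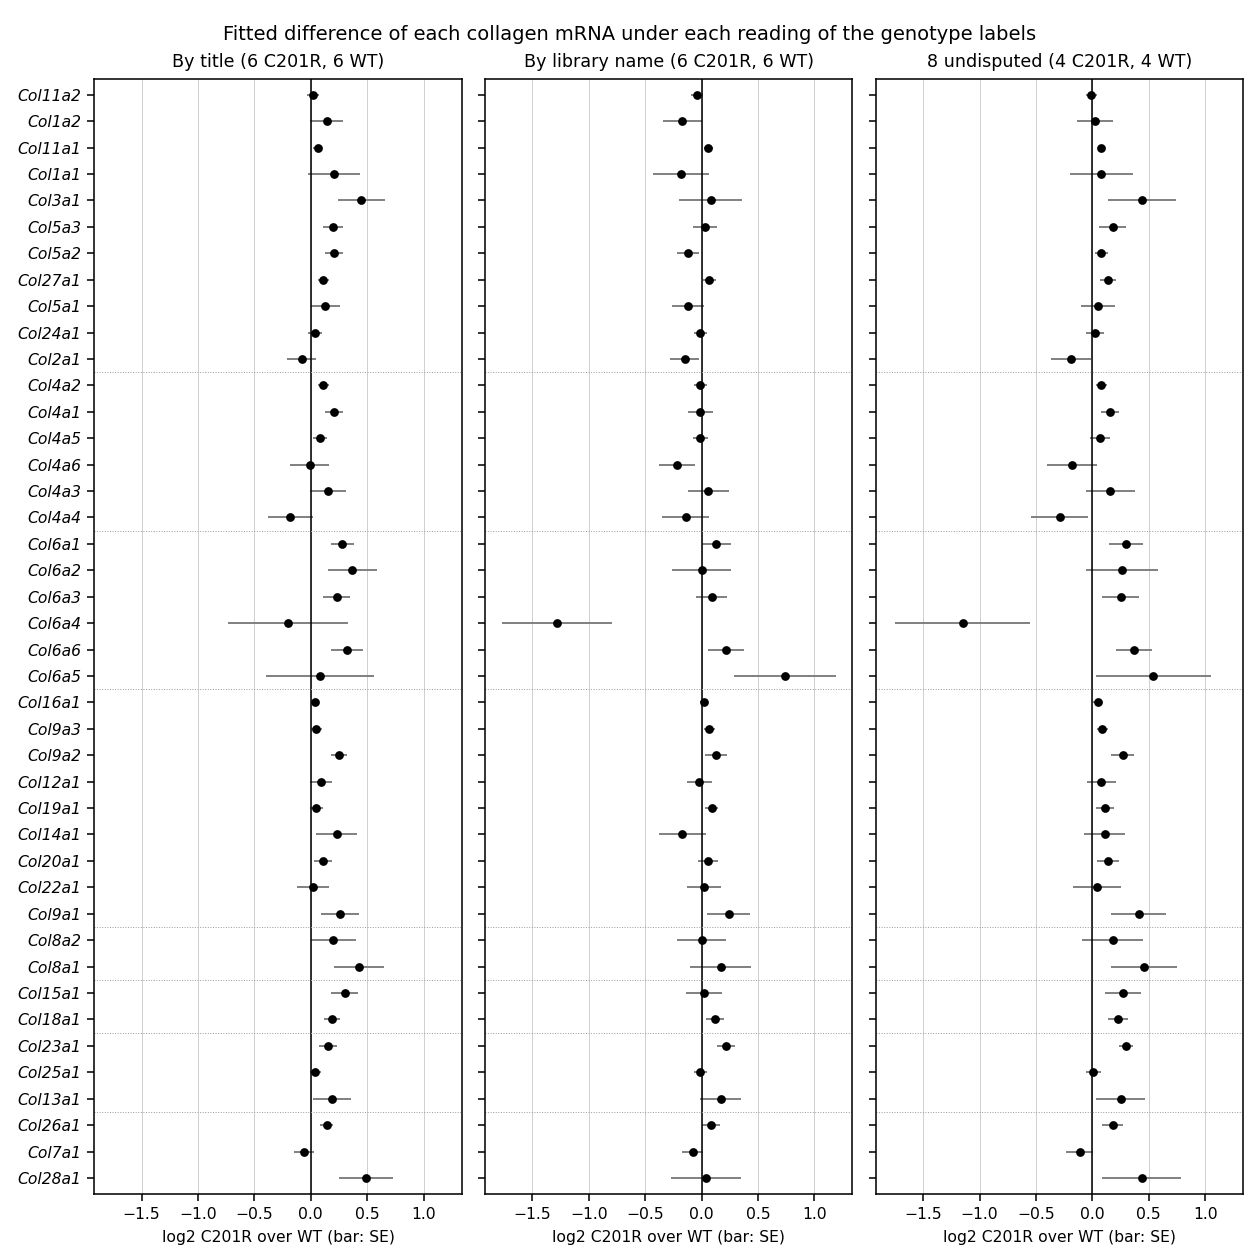
Fitted log2 difference, C201R over WT, of each collagen mRNA with its SE, by title, by library name and in the 8 undisputed libraries, with dotted lines between structural classes. Of the 42 members, 37 lie above 0 by title, 25 by library name and 36 in the undisputed libraries, and none passed the threshold in edgeR.

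Genes that make, bind and break down collagen were examined from 6 lists, and none of their tested genes was called in any of the 3 comparisons. In the list of synthesis, folding and secretion, 11 of 23 genes were higher by title, 11 of 23 by library name and 10 of 23 in the undisputed libraries. Before adjustment, 8 of the 23 (34.8%) had p under 0.05 by library name, 2 higher and 6 lower, against 12.8% of all genes. The undisputed libraries also gave 2 higher and 6 lower, against 13% of all genes, and by title 1 was higher and 2 were lower, against 6.77%. P4ha1, a subunit of the prolyl hydroxylase that stabilises the helix, had the lowest p in that list by library name. It averaged 27.5 ± 7.05 TPM in C201R and 35.4 ± 1.94 TPM in WT (SD over 6 libraries each), for a fitted log2 difference of -0.44 ± 0.13 (edgeR adjusted p = 0.158). In the undisputed libraries the difference was -0.56 ± 0.12 (edgeR adjusted p = 0.12), and by title Crtap, a partner of prolyl 3-hydroxylase, came first at 0.19 ± 0.07 (edgeR adjusted p = 0.673).

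Small leucine-rich proteoglycans, which bind fibrils, were higher in C201R in 8 of 8 by title, 5 of 8 by library name and 8 of 8 in the undisputed libraries. Dcn, decorin, averaged 52.2 ± 6.07 TPM in C201R and 40.4 ± 8.55 TPM in WT by title, a log2 difference of 0.34 ± 0.13 (edgeR adjusted p = 0.679). Basement membrane partners were higher in 15 of 15 by title, 7 of 15 by library name and 11 of 15 in the undisputed libraries. Nid2, nidogen 2, which links laminin to type IV collagen, averaged 3.21 ± 0.471 TPM in C201R and 2.38 ± 0.415 TPM in WT by title, with a log2 difference of 0.40 ± 0.10 (edgeR adjusted p = 0.579).

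Collagen receptors were higher in C201R in 7 of 9 by title, 6 of 9 by library name and 6 of 9 in the undisputed libraries. Of these 9, 4 had p under 0.05 before adjustment by library name, 3 higher and 1 lower, against 12.8% of all genes (5.98% higher and 6.81% lower). In the undisputed libraries 2 were higher and 1 was lower, against 13% of all genes, and by title it was 0, against 6.77%. Itgb1, the shared beta chain of the collagen-binding integrins, had a log2 difference of -0.12 ± 0.03 by library name (edgeR adjusted p = 0.145), and Ddr1, a receptor kinase for collagen, of 0.15 ± 0.04 in the undisputed libraries (edgeR adjusted p = 0.211). For processing and cross-linking enzymes, 8 of 15 were higher by title, 10 of 15 by library name and 10 of 15 in the undisputed libraries. Of the breakdown enzymes and inhibitors, 7 of 12 were higher by title, 4 of 12 by library name and 5 of 12 in the undisputed libraries. Mmp13, a collagenase, averaged 0.158 ± 0.0671 TPM in C201R and 0.358 ± 0.224 TPM in WT by library name (log2 difference -1.36 ± 0.43, edgeR adjusted p = 0.19).

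Across libraries, regardless of genotype, some collagens correlated with Schwann cell markers and some with meningeal fibroblast markers. Each member was correlated with the mean log2(TPM + 0.1) of 5 marker lists (Schwann cell, meningeal fibroblast, endothelial, pericyte and smooth muscle, skeletal muscle), which gave 210 relations with two-sided permutation tests adjusted over all of them. The lists contain no collagen gene, and all values of a library come from the same RNA and share its depth. Dorsal root ganglion, fat, cartilage and bone, and blood and leukocyte markers were not used. Skeletal muscle markers were kept although libraries 2 and 11 stood apart on them, far below the rest.

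Col14a1, a fibril-associated collagen, followed the Schwann cell markers (Prx, Pmp2, Egr2, Drp2, Ncmap and Cldn19) most closely. Its lowest level was 4.96 CPM in library 8 and its highest 14.5 CPM in library 11, and the summed Schwann cell markers were lowest in library 8 at 58 TPM and highest in libraries 5 and 11 at 184 and 178 TPM. The correlation was r = 0.93 (permutation p = 6e-05, adjusted p = 0.0126) and rho = 0.93 (permutation p = 8e-05, adjusted p = 0.0168), and r = 0.92 without libraries 2 and 8. By genotype, Col14a1 had log2 differences of 0.23 ± 0.18 by title, -0.17 ± 0.21 by library name and 0.11 ± 0.18 in the undisputed libraries (edgeR adjusted p = 0.867, 0.806 and 0.85). The median of the Schwann cell markers had the same signs, at 0.18, -0.10 and 0.13. These values come from the same libraries as the correlation, so the match of signs is not separate evidence.

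Col28a1 gave r = 0.85 with the Schwann cell markers (permutation p = 0.00052, adjusted p = 0.0364) and rho = 0.78 (p = 0.00355, adjusted p = 0.143), and r = 0.86 without libraries 2 and 8. Col4a1, Col5a3 and Col5a1 had r of 0.81, 0.81 and 0.80 (permutation p = 0.00164, 0.00186 and 0.00184, adjusted p = 0.0434 for each), and rho of 0.82, 0.73 and 0.74 (permutation p = 0.00181, 0.00956 and 0.00751, adjusted p = 0.143, 0.183 and 0.183). Without libraries 2 and 8 their r was 0.66, 0.62 and 0.78. In CPM, Col4a1 and Col5a1 no longer passed (adjusted permutation p = 0.0544 and 0.0613).

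Other chains went with the meningeal fibroblast markers. Col8a2 had r = 0.85 (permutation p = 0.00052, adjusted p = 0.0364), Col1a1 0.84 (p = 0.00076, adjusted p = 0.0399), Col6a2 0.81 (p = 0.00139, adjusted p = 0.0434) and Col6a1 0.79 (p = 0.00155, adjusted p = 0.0434). Their rho was 0.76, 0.68, 0.55 and 0.78 (permutation p = 0.00586, 0.0186, 0.0671 and 0.00408), and no rho passed after adjustment (adjusted p = 0.176, 0.196, 0.354 and 0.143). Library 2 was highest for Col8a2, Col6a1 and Col6a2 and for the summed meningeal markers, 278 TPM. Without libraries 1 and 2, r was 0.68 for Col8a2, 0.80 for Col1a1, 0.61 for Col6a2 and 0.56 for Col6a1.

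In CPM, Col4a3 also passed for the meningeal markers, with r = 0.87 (adjusted permutation p = 0.0277), against r = 0.51 in TPM. No member passed for endothelial, pericyte and smooth muscle, or skeletal muscle markers. In TPM, r was nonetheless positive for 37 of 42 members with endothelial markers (median 0.42) and 38 with pericyte and smooth muscle markers (0.32). With meningeal fibroblast markers it was positive for 34 (median 0.29) and with Schwann cell markers for 29 (0.2). Col6a1 had r = 0.67 with endothelial and 0.63 with pericyte and smooth muscle markers. Whether a member went with any list more than another was not tested. For skeletal muscle markers, which varied 112-fold between libraries, r was positive for 6 of 42 members and lay between -0.69 and 0.36. These signs rested on libraries 2 and 11, and without them r was positive for 21 of 42 members and lay between -0.56 and 0.73.

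**Figure D5:**
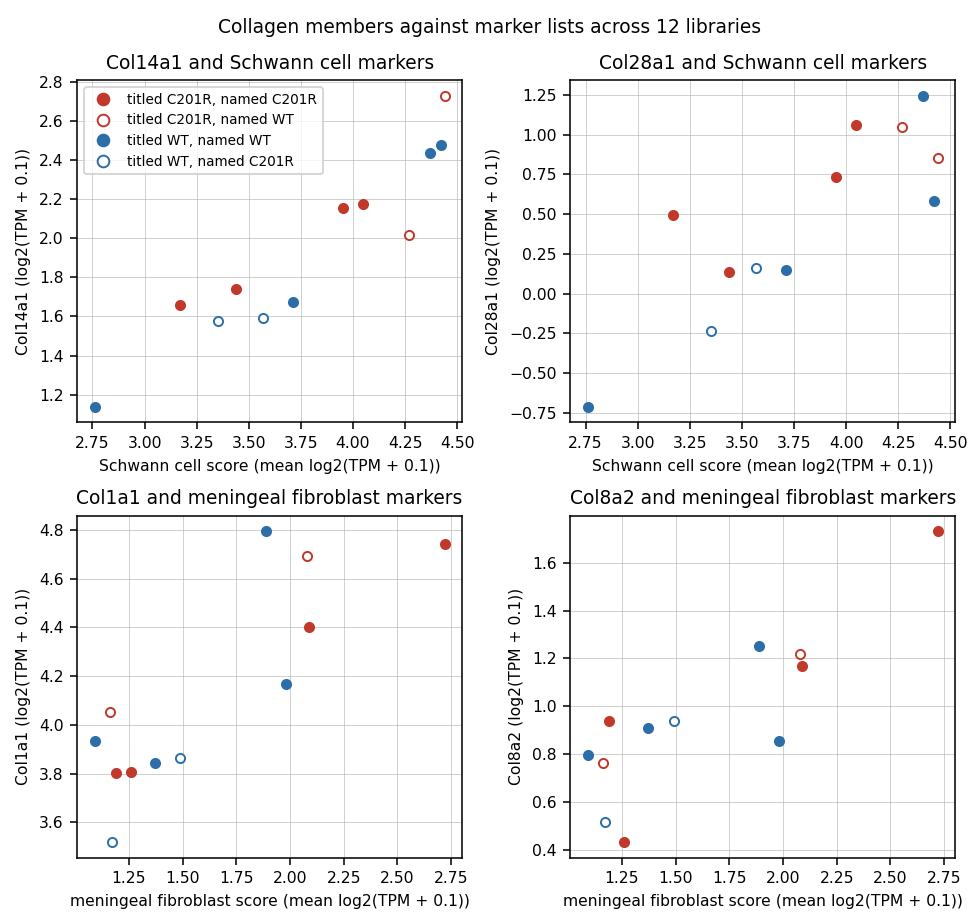
Log2(TPM + 0.1) of Col14a1 and Col28a1 against the mean of 6 Schwann cell markers, and of Col1a1 and Col8a2 against the mean of 15 meningeal fibroblast markers, in each of 12 libraries. Col14a1 climbs with the Schwann cell score (r = 0.93) across both genotype labels, and library 2 holds the highest meningeal score.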

How the data were processed

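PolyA RNA of whole spinal cord was prepared with a stranded kit and read from both ends, per the labels' protocols, and each library has its own table of 38924 genes. The submitters' processing notes name RSEM 1.2.12 and Bowtie2 2.2.0. Genome build and strand setting: not given in the sources used here. As the file headers show, the authors' deposited values were RSEM expected counts, TPM and a gene length in bases that depends on each library's transcript mix. Members and lists were chosen with earlier results of these data known, and 2 genes of the marker lists are not reported here.

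Expected counts were rounded. Genes kept by filterByExpr (4 titled groups, minimum count 10) were scaled by TMM and tested with edgeR 4.0.16 (R 4.3.3), with titled sex as a term and Benjamini-Hochberg adjustment over 17765 genes (threshold 0.05). Titled sex went against Xist in 6 of 12 libraries, so this term cannot be taken to adjust for the uneven division of Xist between genotypes. Each SE was derived from the difference and its F value, and CPM are scaled by TMM. DESeq2 1.42.0 and limma 3.58.1 on log2(TPM + 1) and log2(TPM + 0.1) were alternatives. Joins, permutation tests and plots used scipy 1.17.1, pandas 2.3.3, matplotlib 3.10.9 and numpy 2.4.6 in Python 3.11.15. Named members are the 2 of highest mean TPM in each class, the 5 of lowest p per comparison and the 3 of largest SD; lists give the gene of lowest p. Other genes were chosen after their values were seen, as were the correlations with marker lists and the p-values of the chain pairs. Labels do not say that each library came from its own animal, and p-values then reflect only how much the libraries vary, which may be technical. No pair of the 66 agreed within sampling noise (chi-square per degree of freedom at least 6.5). Positions are from GENCODE M21.

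On simulated counts for 17765 genes, genes changed 1.25, 1.5, 2 and 4 times were recovered in 40, 68, 84 and 98% of cases by title, 38, 68, 78 and 100% by library name, and 16, 54, 78 and 92% in the 8 undisputed libraries. At each fold 50 genes, drawn from all genes, were changed together, and 4, 4 and 10 unchanged genes were called. Collagens with at least 500 counts varied more than all such genes (median log2 SD 0.18 against 0.07), and by title 0 real genes were called. The shares were not measured for collagens and may be too high for them.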

Additional observations from a re-analysis of the deposited data

Results flagged for a closer look

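In groups of 6 libraries, 9 of 168 tests over members and groupings found the highest or lowest CPM far from the rest. Chance alone flags about 1 in 20 groups, so this number is near what chance gives. The groups by title and by library name also share libraries. Library 2 accounts for 4 of them. Among the libraries titled C201R, it had 40.6 CPM of Col6a1, with 31.5 CPM the next. Among those named C201R, it had 31.9 CPM of Col6a2 (next 18.4), 42.5 CPM of Col12a1 (next 33.3) and 3.23 CPM of Col6a4 (next 1.33). Library 6 was highest among those titled WT for Col3a1 with 62.1 CPM (next 37.1), Col6a3 with 16.2 CPM (next 11.5) and Col8a1 with 5.67 CPM (next 3.42). Col11a2 was 107 CPM in library 11 among those titled C201R (next 93.4), and Col7a1 was 7.59 CPM in library 8 among those titled WT (next 6.27).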

How the results depend on the processing

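No collagen member was called in any setting run for the title or library-name comparison. The settings were DESeq2, RLE scaling, all genes with a count above 0, genes with a mean over 1 CPM, limma on both log2(TPM) scales, no sex term, library number as a linear term, each library left out in turn (library 3 also holds the highest fat markers) and, added after seeing the data, no library with over 0.15% of TPM in skeletal muscle markers (1, 3 and 8 left out). The median log2 difference of the 42 members stayed between 0.09 and 0.18 by title over these settings. By library name it ran from -0.04 to 0.11. It was 0.11 with 34 members higher in C201R when library 4 was left out, 0 with 21 higher when library 2 or 8 was, and -0.04 with 16 higher without the 3 muscle-rich libraries, against 0.02 and 25 higher in the main result, and the cause was not tested. In the 8 undisputed libraries the median lay between 0.08 and 0.16, and the number of members called ranged from 0 to 1 over the libraries left out, with Col6a4 called without library 2 (log2 difference -2.09, edgeR adjusted p = 0.0357; 0.0357 to 1 over all settings for Col6a4). DESeq2 called 1 member there, Col23a1 (adjusted p = 0.00361), for which other settings gave adjusted p up to 1. The differences of the members with the lowest p in each comparison kept their direction in every setting run, while other members changed sign, as the counts above show. The number of all genes called moved more. By library name it was 127, with 318 by DESeq2, 235 with library number as a term, 41 and 42 by limma, 54 to 221 over the libraries left out and 22 without the muscle-rich libraries. In the undisputed libraries it was 29, with 245 by DESeq2, 91 with no filter, 70 with no sex term, 14 with library number, 12 by limma on either scale, 5 to 119 over the libraries left out and 1 without the muscle-rich libraries. By title it was 0, with 18 by DESeq2 and 8 with library number. The median SD of members over libraries was 0.25 in TPM and 0.23 in CPM. No paired analysis was possible because each library has a number of its own.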
